A study of Danio rerio with 6 samples.

Results

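The change in gene expression between 10 and 24 hours post-fertilization (hpf) was examined in whole zebrafish embryos kept in 200 μg/l pentachlorophenol (PCP), a chlorinated phenol once used as a wood preservative and fungicide. The question was which of the rises and falls that take place in control embryos over these hours also took place under the high dose, and which did not. The embryos were of the Tuebingen strain and were exposed from about 1 hpf, and all groups, controls included, received the vehicle, 0.01% DMSO. The high dose groups were 24H and 10H (200 μg/l, collected at 24 and 10 hpf), the low dose groups 24L and 10L (5 μg/l), and the controls 24C and 10C (0 μg/l). These doses are nominal, and for the high dose the authors measured a lower concentration at the end of exposure than at its beginning. The embryos of each of the 6 groups were sequenced together as 1 library, so there were no replicates, and each test below compares the reads of libraries rather than conditions. The high dose libraries made up 2 of the 6, and 24H against 10H shares no library with 24C against 10C.

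The values below cover 21217 genes of the 21228 in the table. The other 11 are merged entries, each a shared clone prefix standing for many transcripts, which held 13.9% to 15.5% of each library's reads and are not used here. The deposited values were normalized counts from which whole reads could be recovered, 59864868 in 24H and 51032834 in 10H, with a range over all libraries of 47409208 to 59864868. FC is the normalized count at 24 hpf over that at 10 hpf in embryos given the same dose. A gene was said to rise or fall when FC passed 2-fold in either direction and the adjusted p was under 0.05 in an exact binomial test on the reads, with Benjamini-Hochberg adjustment over all genes. The change in the high dose was said to differ from that in the controls when the log2 FCs were more than 1 apart and the adjusted p was under 0.05 in an exact conditional test on the 4 read counts. This test could not call a gene without reads in both libraries of an age or of a dose, whatever its other counts. All intervals are 95% intervals that cover counting error only. A gene list is described by its measured members, those with at least 10 reads on average over these 4 libraries, and its median log2 FC was taken after 1 was added to the normalized counts.

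In the zebrafish, 10 hpf marks the end of gastrulation, when the embryo is a layer of cells around the yolk with its axes laid down and most tissues not yet begun. By 24 hpf the somites, paired blocks of muscle and skeletal precursors, have been cut in sequence from the presomitic mesoderm under the control of an oscillating gene network, the segmentation clock. The trunk muscle then twitches, the heart beats, and lens, pigment cells, blood and neurons have begun to make their own proteins, while the genes that ran gastrulation have been shut down.

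The labelled ages were checked first with early and late genes. Both 24 hpf libraries had far fewer counts of pou5f1, the zebrafish pluripotency factor, than the 10 hpf libraries of the same dose, with 613 normalized counts in 24H against 24113 in 10H, and 71.7 in 24C against 3572 in 10C. Slow myosin heavy chain smyhc1 stood at 29279.6 in 24H against 299.6 in 10H, and at 17364 in 24C against 189 in 10C. The neuronal RNA-binding gene elavl3 followed the same order, with 2039 in 24H against 181 in 10H, and 3267 in 24C against 237 in 10C. Thus pou5f1 was lower, and smyhc1 and elavl3 were higher, in the library labelled 24 hpf of both pairs. Not every late gene rose in the high dose, as given below for gad1b.

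Over the whole table, 5509 genes (26.9% of the 20488 with reads) rose under the high dose and 3971 (19.4%) fell. In the controls 6047 genes (29.3% of 20631) rose and 3817 (18.5%) fell, and in the low dose embryos 5701 (27.6% of 20629) rose and 3334 (16.2%) fell. The change was more positive under the high dose than in the controls for 2359 genes (11.8% of 20076) and more negative for 2255 (11.2%). Of the 17133 measured genes, 30.4% rose and 21.7% fell in the high dose, against 31.3% and 21.2% in controls. The change was more positive for 13.6% of them and more negative for 12.6%. The list counts below are to be read beside these shares. Across the 17133 measured genes the log2 FCs of high dose and controls had a Pearson correlation of 0.795 (Spearman 0.789), and those of low dose and controls one of 0.931 (Spearman 0.912). These correlations are over genes, which are not independent replicates, and the pairs share no library. As these are whole embryos, fewer cells of a type and less RNA per cell cannot be told apart in any value that follows.

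Of the 6047 genes that rose in controls, 4169 (68.9%) also rose under the high dose. For 553 of these the rise was larger under the high dose and for 552 it was smaller. Another 782 (12.9%) did not pass as a rise and their change differed from that of the controls, and these are called missing rises. A further 107 (1.77%) fell under the high dose, and 989 (16.4%) were not called without being shown to differ. Of 3817 genes that fell in controls, 2354 (61.7%) also fell under the high dose, 554 (14.5%) were missing falls, 85 (2.23%) rose, and 824 (21.6%) were not called without being shown to differ. Under the high dose 668 genes rose and 495 fell that were not called in controls and whose change differed. For comparison, the low dose kept 80.9% of the control rises and 67.7% of the control falls, and reversed 15 and 13 genes.

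**Figure D1:**
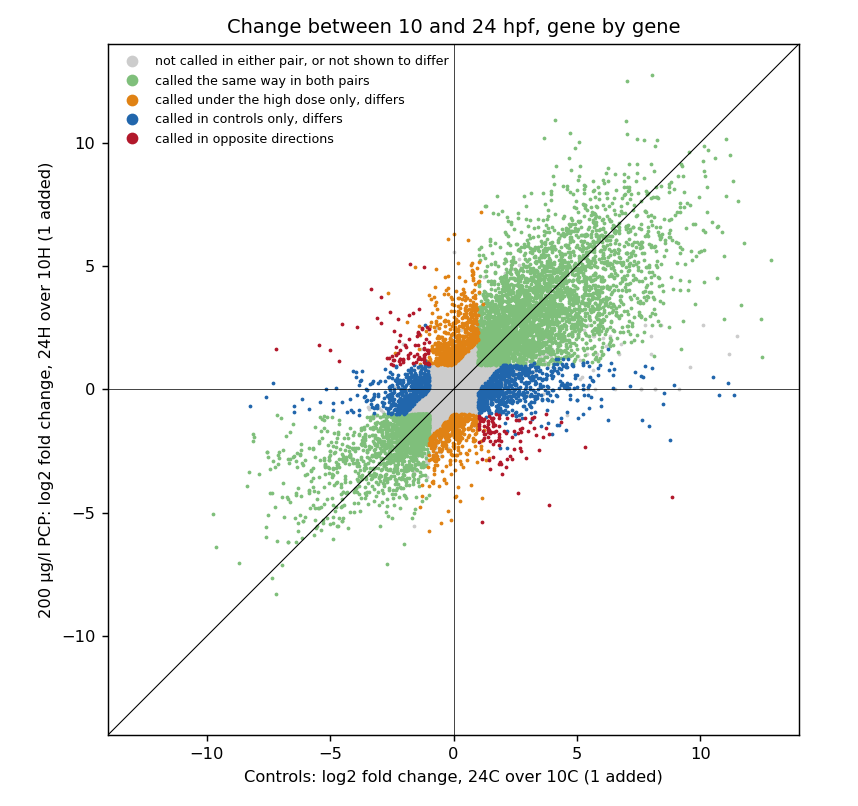
Log2 FC between 10 and 24 hpf under 200 μg/l PCP (vertical axis) against that in controls (horizontal axis), 1 point for each of 17133 measured genes, with 1 added to the normalized counts and the line of equal change drawn. Most genes called in controls lie in the same quadrant under the high dose, and the points along the horizontal axis are rises and falls of the controls with little change under the high dose.

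The levels behind these classes were not alike at the 2 ages. In the high dose, 390 of the 782 missing rises were more than 2-fold below the controls at 24 hpf alone, 144 were more than 2-fold above them at 10 hpf alone, and 176 were both. Of the 554 missing falls, 429 stood more than 2-fold above the controls at 24 hpf alone and 19 stood below them at 10 hpf alone. Of the 553 larger rises, 289 were more than 2-fold below the controls at 10 hpf alone, 113 were above them at 24 hpf alone, and 69 were both. The 256 falls that were kept but smaller under the high dose again lay in the later library, with 229 more than 2-fold above the controls at 24 hpf alone.

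**Figure D2:**
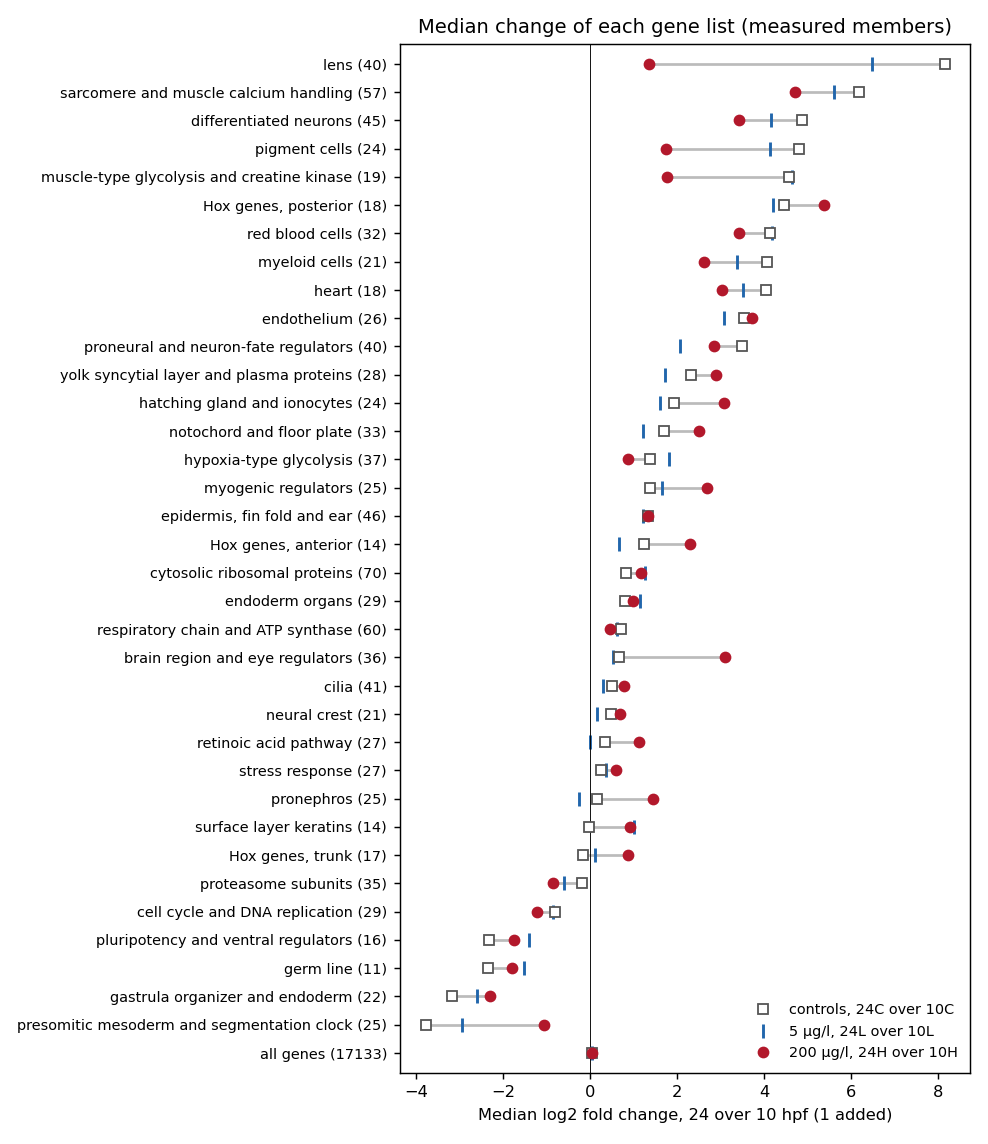
Median log2 FC between 10 and 24 hpf of the measured members of 35 gene lists (number in brackets) and of all genes, in controls (open squares), at 5 μg/l (blue ticks) and at 200 μg/l PCP (red points). The high dose median is far below that of the controls for lens, pigment cells and muscle-type glycolysis, and far above it for presomitic mesoderm and for brain region and eye regulators.

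The genes that start and pattern the gastrula fell under the high dose, as they did in controls. Of 16 pluripotency and ventral regulators, 14 fell in the high dose and 14 in the controls, and the same 14 genes were called in both. The median log2 FC was -1.75 in the high dose and -2.34 in controls, beside 0.04 and 0.05 over all genes. The fall of pou5f1 had a log2 FC of -5.30 in the high dose and -5.64 in controls. Its counts, given above, were higher in the high dose than in controls at both ages. Falls were smaller for 5 of the 16 (31.25%, beside a more positive change in 13.6% of all measured genes). The ventral homeobox repressor vent fell to 581 in 24H, against 3219 in 10H, whereas the controls had 21.4 in 24C and 2666 in 10C (difference of log2 FC 4.49, interval 3.85 to 5.22). The related repressors vox and ved had differences of 2.41 and 3.55, and vent alone among these 5 kept its difference in edgeR with an assumed biological coefficient of variation (BCV) of 0.4.

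The organizer and endoderm genes also mostly fell, 16 of 22 in the high dose (median log2 FC -2.30) and 19 of 22 in controls (median -3.19). The change was more positive under the high dose for 11 of the 22 (against 13.6% of all measured genes), with 3 missing falls and 1 gene that rose in the high dose alone. The BMP antagonist chordin (chd) fell to 371 in 24H, against 26638 in 10H, and controls had 94.1 in 24C and 13596 in 10C. For sox32, which commits cells to endoderm, the counts were 62.0 in 24H and 5337 in 10H, against 0 in 24C and 783 in 10C, so that the control fall was at least 244-fold measured against a floor of 3 reads. In low dose embryos sox32 had 16.5 in 24L and 342 in 10L, and set against these in place of the controls its difference turned to -2.05. The endoderm gene sox17, acting after sox32, had 32.7 in 24H and 1446 in 10H, against 8.56 in 24C and 750.2 in 10C. Brachyury, listed as ntla, which is needed for notochord and tail, showed no called difference, with log2 FCs of -2.24 in the high dose and -3.17 in controls (difference 0.94, interval 0.79 to 1.08). Smaller falls in the high dose were found for wnt8a, a ventral and posterior Wnt ligand, with 124 in 24H and 1865 in 10H, against 2.14 in 24C and 1027 in 10C, and for the notochord homeobox gene flh (log2 FC -2.37 in the high dose, -5.88 in controls). No difference in this list remained with an assumed BCV of 0.4.

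Presomitic mesoderm genes fell much less far under the high dose than in controls. Of 25 measured genes, 14 fell in the high dose with a median log2 FC of -1.07, and 19 fell in controls with a median of -3.78. The change was more positive under the high dose for 17 of the 25 (68.0%). For comparison, 13.6% of all measured genes had a more positive change. The clock gene her1 had 735 normalized counts in 24H and 2601 in 10H, against 5.35 in 24C and 1759.5 in 10C (difference 6.54, interval 5.31 to 8.17). Its partner her7 had 458 in 24H and 2699 in 10H, against 10.7 in 24C and 2195 in 10C. In both genes the 10 hpf libraries stood close together and the 24 hpf libraries far apart. Mesogenin (msgn1), which drives cells into presomitic mesoderm, had 6017 in 24H and 22989 in 10H, against 74.9 in 24C and 20859 in 10C. The T-box gene tbx16, which acts with msgn1, had log2 FCs of -2.74 and -7.57 in high dose and controls, and the posterior homeobox gene cdx4 of -2.54 and -7.57. For mespb, which marks the next somite boundary, there was no called fall in the high dose, with 125 in 24H and 199.7 in 10H, against 0 in 24C and 300.1 in 10C.

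At 24 hpf the low dose embryos lay between the other doses for her1, msgn1 and cdx4. The counts of her1 were 94.9 in 24L and 1865 in 10L, those of msgn1 642 in 24L and 16630.0 in 10L, and those of cdx4 522 in 24L and 19416 in 10L. Of the 25 genes, 20 fell in the low dose, with a median log2 FC of -2.95. An exception to the pattern was hes6, a partner of the clock genes, whose fall was larger in the high dose (log2 FC -2.73) than in controls (-1.70). With an assumed BCV of 0.4, 10 of the 17 more positive changes were still called, those of her1, her7, msgn1, tbx16, cdx4 and mespb and, named here because they held, mesp2, mespa, pcdh8 and tbx24. One of these, pcdh8, a cell adhesion protein of the paraxial mesoderm, had 2918 in 24H and 5008 in 10H, against 55.6 in 24C and 3326 in 10C.

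**Figure D3:**
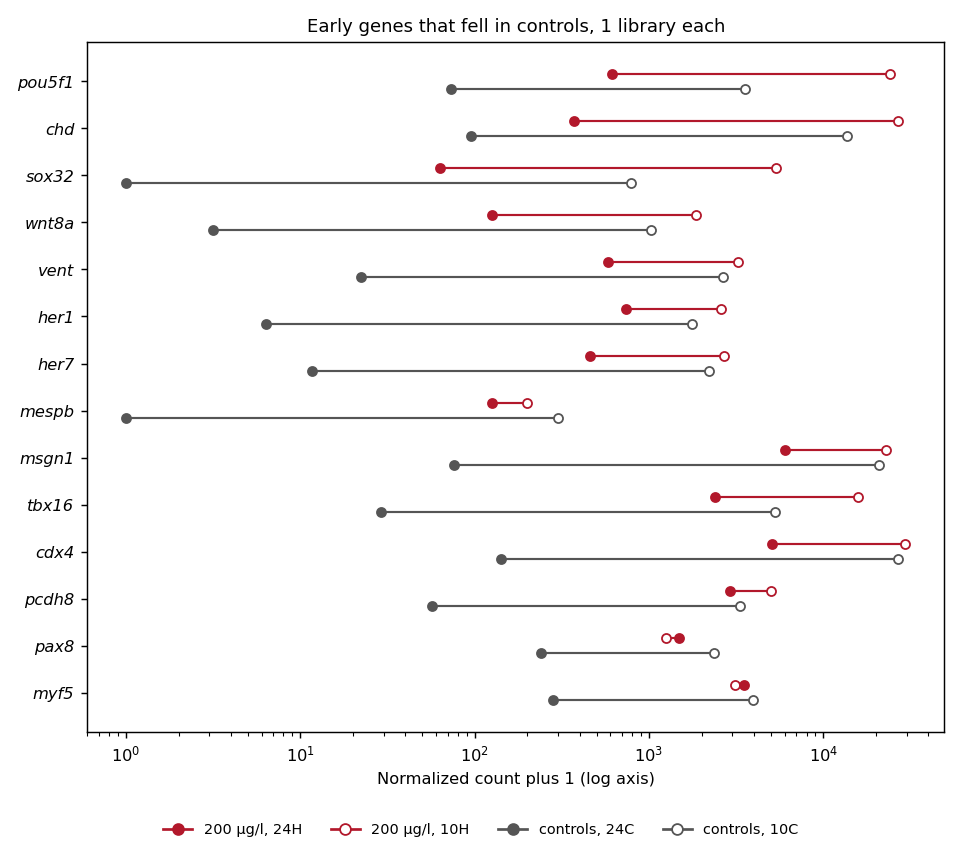
Normalized counts (plus 1, log axis) of 14 gastrula, presomitic mesoderm, muscle and kidney genes that fell in controls, in 4 libraries, with the high dose (red) above the controls (grey) for each gene, filled points for 24 hpf and open points for 10 hpf. For her1, her7, msgn1 and cdx4 the open points lie near each other, while the filled red points lie well to the right of the filled grey ones.

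Germ line genes fell in both pairs, with 8 of 11 called in the high dose and 11 of 11 in controls. The germ cell helicase vasa had 251 in 24H and 1799.6 in 10H, against 149.8 in 24C and 799.5 in 10C. A missing fall was that of piwil2, a Piwi protein that silences transposons, with 262 in 24H and 315 in 10H, against 59.9 in 24C and 506 in 10C. Cell cycle and replication genes fell more often under the high dose, 20 of 29 with a median log2 FC of -1.23, against 10 of 29 in controls with a median of -0.80. These were 69.0% and 34.5%, against 21.7% and 21.2% of all measured genes. For 8 of the 29 (27.6%, against 12.6% of all measured genes) the change was more negative under the high dose. The replication clamp pcna had 20434 in 24H and 46799 in 10H, against 65239.5 in 24C and 63956 in 10C, and cyclin E2 (ccne2) had log2 FCs of -2.51 and -0.53 in high dose and controls. All 10 control falls of this list were kept, and 6 falls were found in the high dose alone with a called difference. None of these differences remained with an assumed BCV of 0.4.

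Muscle genes mostly rose under the high dose. Called differences from the controls were more positive in the list of regulators and mostly more negative in that of contractile proteins. Many members of both lists were in neither class. Of 25 myogenic regulators, 18 rose in the high dose (median log2 FC 2.67) and 13 in controls (median 1.36), and all 13 control rises were kept. The change was more positive under the high dose for 14 (56%, against 13.6% of all measured genes) and more negative for 0. The list also holds genes that are not regulators, such as jph2, unc45b and the myosin light chain myl9l. Myogenin (myog), which commits myoblasts to fuse, had 4007 normalized counts in 24H and 1.05 in 10H, against 216 in 24C and 11.5 in 10C (difference 7.67, interval 4.87 to 13.10). The 10H value rests on 1 read and the 10C value on 11. The earlier factor myf5, which specifies muscle precursors, had 3506 in 24H and 3094 in 10H, against 280.3 in 24C and 3953 in 10C, a missing fall. A rise of myod1, its partner, was called in the high dose alone, with an FC of 4.92 in the high dose (interval 4.55 to 5.34) and of 0.847 in controls (interval 0.774 to 0.926). With an assumed BCV of 0.4 only the difference of myog was still called.

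Among 57 sarcomere and calcium-handling genes, 51 rose in the high dose and 53 in controls, with medians of 4.70 and 6.17. Of the 53 control rises 49 were kept and 3 were missing, yet for 25 of the 57 genes (43.9%, against 12.6% of all measured genes) the change was more negative under the high dose. It was more positive for 6 (10.5%, against 13.6% of all measured genes). The slow fibre myosin smyhc1 rose in both pairs with no called difference (log2 FC 6.61 in the high dose, 6.52 in controls, difference 0.09, interval -0.19 to 0.36). The fast fibre myosin myhz2 had 1328 in 24H and 30.5 in 10H, against 14537 in 24C and 6.30 in 10C. Parvalbumins, which buffer calcium in fast fibres, showed the most negative differences of the list with reads in all 4 libraries. For pvalb1 there were 104 normalized counts in 24H and 73.6 in 10H, against 29468 in 24C and 18.9 in 10C, so the high dose FC was 1.42 (interval 1.05 to 1.93) and the difference of log2 FC -10.10. In low dose embryos pvalb1 had 10401 in 24L and 13.3 in 10L, between the other 2 doses at 24 hpf. The related pvalb2 rose in the high dose with an FC of 10.9 (interval 8.09 to 15.1), and in controls with an FC of 3480.3 (interval 1992 to 6736). The fast calcium pump atp2a1 had a difference of -2.91. Not all actins went one way, as acta1a had a larger rise in the high dose (log2 FC 8.68) than in controls (5.09) and acta1b a smaller one (6.93 and 8.55). Reads of such close copies may have been split between them. The slow myosin-binding protein gene mybpc1 was a missing fall (log2 FC 0.49 in the high dose, -2.69 in controls). With an assumed BCV of 0.4, 9 of the 25 more negative changes remained, those of myhz2, pvalb1 and pvalb2 included.

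The enzymes of muscle-type glycolysis and creatine kinase also rose less far. Of 19 measured, 12 rose in the high dose and 15 in controls, with medians of 1.77 and 4.58. The change was more negative under the high dose for 10 (52.6%, against 12.6% of all measured genes) and more positive for 0. Muscle phosphofructokinase pfkmb had 37.9 in 24H and 33.6 in 10H, against 721 in 24C and 17.8 in 10C, a missing rise. The glucose phosphate isomerase gpib rose in both pairs, with 76.7 in 24H and 11.6 in 10H, against 537 in 24C and 1.05 in 10C. Both of these differences, and no others of the list, were still called with an assumed BCV of 0.4.

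Heart genes rose in both pairs, 15 of 18 each (83.3%, against 30.4% and 31.3% of all measured genes). The change was more positive under the high dose for 5 of the 18 and more negative for 1. These were 27.8% and 5.56%, against 13.6% and 12.6% of all measured genes. The atrial and ventricular light chain gene myl7 had 1094 in 24H and 2.102 in 10H, against 2578 in 24C and 0 in 10C. Cardiac troponin T (tnnt2a) had 1106 in 24H and 4.20 in 10H, against 1940.4 in 24C and 12.6 in 10C. The light chain gene cmlc1 had no reads at 10 hpf in either pair and rose at least 359-fold in the high dose and at least 666-fold in controls, measured against 3 reads. The natriuretic peptide gene nppa, active in the chamber wall, had 12.9 in 24H, against 227 in 24C, and 0 at 10 hpf in both. For nppa and cmlc1 the test could not call a difference, as neither had reads at 10 hpf. The hyaluronan synthase has2, which makes the jelly of the heart valves, was a missing fall, with 860.0 in 24H and 1302 in 10H, against 72.7 in 24C and 744 in 10C. No difference of the heart list was called with an assumed BCV of 0.4.

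Blood and vessel genes also rose in both pairs, and the globins named here rose less in the high dose. Of 32 red blood cell genes, 26 rose in the high dose and 27 in controls, with medians of 3.41 and 4.12, and 25 of the 27 control rises were kept. The change was more negative under the high dose for 16 (50%, against 12.6% of all measured genes). The embryonic globin hbae3 had 9055 normalized counts in 24H and 142 in 10H, against 169874 in 24C and 324 in 10C (difference -3.04, interval -3.34 to -2.73). The beta globin hbbe1.3, listed as LOC573653, had 2728 in 24H and 172 in 10H, against 147161 in 24C and 412 in 10C, though globin copies are alike enough for reads to be split among them. The regulator gata1a, at the head of the lineage, had no called difference, with 467 in 24H and 0 in 10H, against 864 in 24C and 2.098 in 10C, while its partner tal1 had a larger rise in the high dose (log2 FC 6.03) than in controls (3.99). The heme enzyme alas2, rate-limiting in red cells, had log2 FCs of 2.53 and 6.37 in high dose and controls. The other way went slc25a38a, a mitochondrial carrier used in heme synthesis, with 779.9 in 24H and 32.6 in 10H, against 81.3 in 24C and 69.2 in 10C. With an assumed BCV of 0.4, 3 of the 16 more negative changes were still called, those of LOC573653, hbae1 and MGC173646, and so was that of slc25a38a.

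Endothelial genes kept all of their 23 control rises, and 25 of 26 rose in the high dose with a median of 3.72, against 3.53 in controls. These were 96.2% and 88.5%, against 30.4% and 31.3% of all measured genes. For 9 (34.6%) the change was more positive under the high dose and for 1 (3.85%) more negative, against 13.6% and 12.6% of all measured genes. The endothelial master gene etv2 had 1642 in 24H and 36.8 in 10H, against 656 in 24C and 321 in 10C (difference 4.45). The junction cadherin cdh5 rose in both with no called difference (-0.53, interval -1.84 to 0.83), and so did the VEGF receptor kdrl (-0.39, interval -0.94 to 0.15). The other VEGF receptor, kdr, rose in the high dose (log2 FC 1.22) and fell in controls (-1.33). Myeloid genes rose in 14 of 21 cases (66.7%) in the high dose and in 15 (71.4%) in controls. Their change was more negative under the high dose for 6 (28.6%, against 12.6% of all measured genes) and more positive for 0. The neutrophil and macrophage lysozyme lyz had 218 in 24H and 16.8 in 10H, against 3276 in 24C and 13.6 in 10C. With an assumed BCV of 0.4 the difference of etv2 was still called, and those of lyz and kdr were not.

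**Figure D4:**
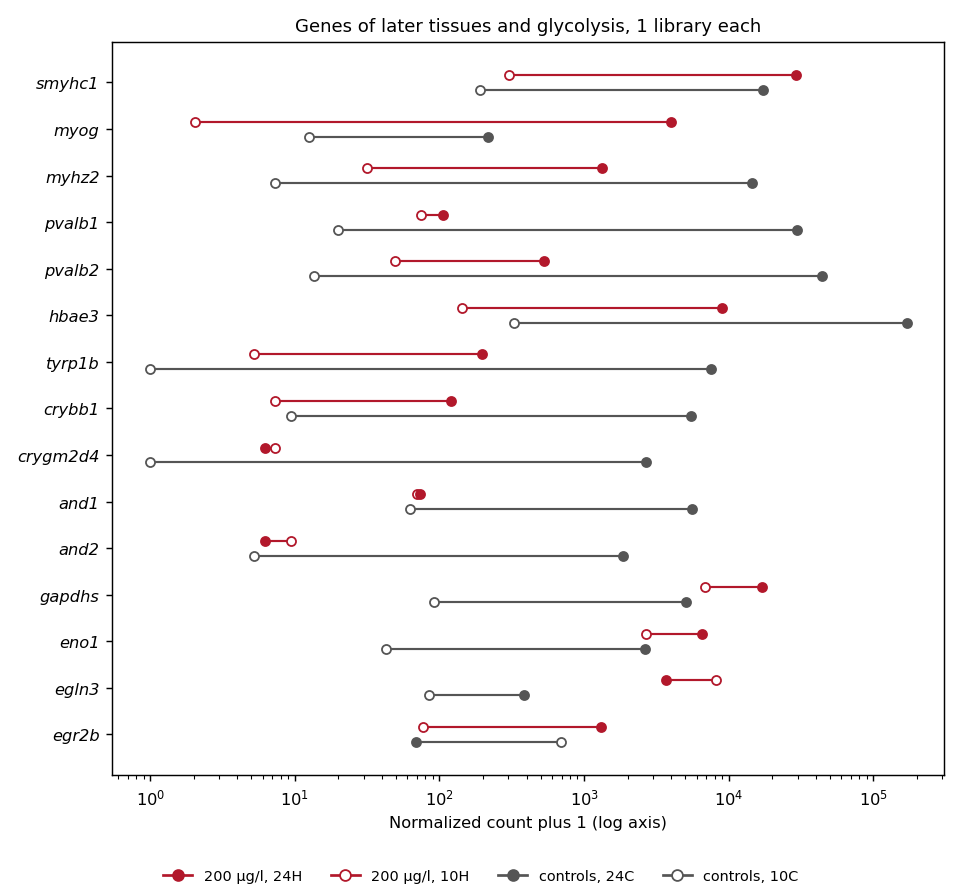
Normalized counts (plus 1, log axis) of 15 genes of later tissues and glycolysis in 4 libraries, with the high dose (red) above the controls (grey) for each gene, filled points for 24 hpf and open points for 10 hpf. The pairs of smyhc1 are of like length, those of pvalb1, crygm2d4, and1 and and2 are short in the high dose, and those of egln3 and egr2b run in opposite directions.

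The lens list had the widest gap between the medians of high dose and controls among the 35 lists. The median difference of its members was -6.06, and it was -5.75 with 0.1 added to the counts and -5.45 with 10 added, the lowest of the 35 lists each time. Several gamma M crystallins passed as measured through their 24C reads alone. The median difference and its rank thus rest in part on members admitted by high control counts. Of 40 measured lens genes, 17 rose in the high dose with a median of 1.34, and 36 rose in controls with a median of 8.14. Of the 36 control rises 15 were kept, 9 were missing, and 12 were not called without being shown to differ. One of these 12, chosen here after its values were seen, was crygm2d1, with 2 reads in 24H and 0 in 10H, against 2134 in 24C and 0 in 10C. With no reads at 10 hpf in either pair, its difference could not be called, however large the gap at 24 hpf. The beta crystallin crybb1, a structural protein of lens fibres, had 119.8 in 24H and 6.31 in 10H, against 5486 in 24C and 8.39 in 10C (difference -5.10, interval -6.84 to -3.27). Among the gamma M crystallins, crygm2d4 had 5.17 in 24H and 6.31 in 10H, against 2660.3 in 24C and 0 in 10C, so that the control rise was at least 845-fold measured against 3 reads. In 24L crygm2d4 had 494, with 0 in 10L. The copies crygm2d6, crygm2d8, crygm2d10, crygm2d12 and crygm2d13 had 0 to 21.5 in 24H and 2.102 to 6.31 in 10H, against 434 to 5797 in 24C and 0 in 10C, though reads of these near-identical genes may have been assigned uncertainly. The fibre aquaporin mipa had 25.9 in 24H and 9.46 in 10H, against 2915 in 24C and 9.44 in 10C.

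Not all lens genes differed that way. The gene foxe3, which keeps the lens epithelium, had 360.2 in 24H and 14.7 in 10H, against 199 in 24C and 37.8 in 10C, and pitx3 rose in the high dose alone (log2 FC 2.07) where controls had -0.58. The beta crystallin crybb3 also rose in the high dose alone, with 86.2 in 24H and 11.6 in 10H, against 18.2 in 24C and 23.1 in 10C. In all, the change was more negative in the high dose for 20 of the 40 lens genes, against 12.6% of all measured genes, and more positive for 4. At an assumed BCV of 0.4, 17 of 20 more negative changes were still called and 0 of 4 more positive ones. Both counts of more negative changes also rest in part on members admitted by high control counts. The share of all measured genes is thus not a like background for them.

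Pigment cell genes mostly rose, though less far. Of 24 measured, 18 rose in the high dose and 19 in controls, 17 of the control rises were kept, 1 was missing and 1 reversed, and the medians were 1.73 and 4.80. For 16 of the 24 (66.7%, against 12.6% of all measured genes) the change was more negative under the high dose. Tyrosinase (tyr), the key enzyme of melanin synthesis, had 392 in 24H and 47.3 in 10H, against 1912 in 24C and 9.44 in 10C. The melanin enzyme tyrp1b had 197 in 24H and 4.20 in 10H, against 7496 in 24C and 0 in 10C. Both rose in each pair, and 24H lay below 24C. The xanthophore and melanophore gene gch2, an enzyme of pteridine synthesis, had 2638 in 24H and 24.2 in 10H, against 24431 in 24C and 28.3 in 10C. The melanosome exchanger slc24a5 had 45.7 in 24H and 16.8 in 10H, against 542 in 24C and 7.34 in 10C, and the xanthine dehydrogenase xdh rose in both pairs, with 62.9 in 24H, against 639 in 24C. The reversed gene, chosen here after its values were seen, was pnp4a, a purine enzyme of iridophores, with 107 in 24H and 1009 in 10H, against 1065 in 24C and 377 in 10C. Another purine enzyme, gart, rose in the high dose alone (log2 FC 1.23, and 0.17 in controls). At an assumed BCV of 0.4, 5 of the 16 more negative changes were still called, those of tyr, tyrp1b, slc24a5, xdh and pnp4a.

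Of 21 neural crest genes, 8 (38.1%) rose in the high dose and 7 (33.3%) in controls, near the 30.4% and 31.3% of all measured genes. For 9 the change was more positive under the high dose (42.9%, against 13.6% of all measured genes). The crest factor sox10 had 2680.1 in 24H and 34.7 in 10H, against 1023 in 24C and 223 in 10C. Crest specifiers foxd3 and snai1b were missing falls, with log2 FCs of 0.16 and 0.91 in the high dose, against -1.58 and -2.32 in controls. No difference of this list was called with an assumed BCV of 0.4.

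Genes of differentiated neurons rose in 34 of 45 cases under the high dose and in 41 in controls, with medians of 3.41 and 4.86. Of the 41 control rises 33 were kept, 7 were missing and 1 was reversed. The change was more negative under the high dose for 23 (51.1%, against 12.6% of all measured genes). The early neuronal gene elavl3 had no called difference (log2 FC 3.50 in the high dose, 3.78 in controls, interval of the difference -0.59 to 0.02). The GABA-synthesizing enzyme gad1b, by contrast, had 33.6 in 24H and 22.1 in 10H, against 374 in 24C and 16.8 in 10C, a missing rise. Tyrosine hydroxylase (th), which makes dopamine, had 31.0 in 24H and 63.1 in 10H, against 97.3 in 24C and 6.30 in 10C. Its fall in the high dose only just passed 2-fold (FC 0.492, interval 0.316 to 0.756) and was lost when libraries were scaled by their totals, at 4-fold and with an assumed BCV of 0.2 or 0.4. The synaptic vesicle gene vamp2 was at 81.0 in 24H and 6.31 in 10H, against 356 in 24C and 0 in 10C. Of the neuron-fate regulators, 26 of 40 (65%) rose in the high dose and 25 (62.5%) in controls, and 23 control rises were kept. Of all measured genes, 30.4% and 31.3% rose. The change of these 40 regulators was more positive under the high dose for 8 and more negative for 10. These were 20% and 25%, against 13.6% and 12.6% of all measured genes. The forebrain gene neurod6b was the 1 missing rise of the 40, with 15.5 in 24H and 22.1 in 10H, against 301 in 24C and 17.8 in 10C. At an assumed BCV of 0.4, 2 of the 23 more negative changes of differentiated neurons were still called, those of th and nefl, and that of neurod6b was too.

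The regulators of brain regions and of the eye differed from the controls in the other direction. Of 36 measured, 25 rose and 7 fell in the high dose with a median of 3.10, whereas 17 rose and 12 fell in controls with a median of 0.66. All 17 control rises were kept. For 20 of the 36 (55.6%, against 13.6% of all measured genes) the change was more positive under the high dose. The hindbrain gene egr2b, which marks rhombomeres 3 and 5, had 1304 normalized counts in 24H and 75.7 in 10H, against 67.4 in 24C and 694 in 10C (difference 7.47, interval 6.94 to 7.998). At 10 hpf the high dose thus had the lower count and at 24 hpf the higher. The midbrain-hindbrain gene eng2a showed the same order, with 1227 in 24H and 84.1 in 10H, against 707 in 24C and 836 in 10C. Its relative eng2b had 2102 in 24H and 4.20 in 10H, against 1403 in 24C and 83.9 in 10C. The telencephalon gene foxg1a had 993 in 24H and 8.41 in 10H, against 902 in 24C and 180.5 in 10C, so the 24 hpf libraries were close and 10H lay far below 10C. The eye gene pax6a was similar, with 2093 in 24H and 52.6 in 10H, against 2403 in 24C and 568 in 10C. The eye field gene rx3 fell in both pairs, less in the high dose (log2 FC -1.79) than in controls (-4.86), and its relative rx1 rose with no called difference (6.33 and 6.52). The forebrain and midbrain gene otx2 fell in both, again with none called (-1.85 and -2.06). At an assumed BCV of 0.4, 5 of the 20 more positive changes were still called, those of egr2b, eng2b, foxg1a, mab21l2 and mafba.

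Hox genes, which give cells their place along the head to tail axis of the body, are grouped here by their place in the clusters. The posterior group also counts evx1 and evx2, which are homeobox genes but not Hox genes. Of its 18 genes, 17 (94.4%) rose in the high dose (median 5.37) and 15 (83.3%) in controls (median 4.45), and all 15 control rises were kept. Of all measured genes, 30.4% and 31.3% rose. The change of 9 (50%) was more positive under the high dose and that of 1 (5.56%) more negative, against 13.6% and 12.6% of all measured genes. The gene hoxa11b had 772 in 24H and 2.102 in 10H, against 398 in 24C and 44.1 in 10C. For hoxd12a the high dose count was 1152 in 24H and 0 in 10H, a rise of at least 365-fold against 3 reads, and controls had 295 in 24C and 22.0 in 10C. A smaller rise in the high dose was that of hoxb13a, at the end of its cluster, with log2 FCs of 2.93 and 5.34 in high dose and controls. Trunk Hox genes rose in 7 of 17 cases (41.2%) in the high dose and in 6 (35.3%) in controls, near the shares of all measured genes. Among them hoxb7a was a missing fall (log2 FC 0.04 in the high dose, -2.43 in controls). The trunk gene hoxa9b rose in the high dose (log2 FC 1.88) and fell in controls (-1.20). Anterior Hox genes rose in 10 of 14 cases (71.4%) in the high dose and 8 (57.1%) in controls, and hoxb1a, a rhombomere 4 gene, was a missing fall (0.22 and -2.30). At an assumed BCV of 0.4 the differences of hoxa11b and hoxd12a were still called, and no others in the 3 Hox groups.

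Among 25 kidney (pronephros) genes, 13 (52%) rose in the high dose and 11 (44%) in controls, against 30.4% and 31.3% of all measured genes. Of the 9 control falls, 6 were missing. The change was more positive under the high dose for 15 (60%) and more negative for 3 (12%), against 13.6% and 12.6% of all measured genes. The kidney and ear regulators pax2a and pax8 were both missing falls. For pax8 the counts were 1479.7 in 24H and 1248 in 10H, against 237 in 24C and 2359.7 in 10C, and pax2a had log2 FCs of 0.98 and -1.58 in high dose and controls. The podocyte regulator wt1a had 217 in 24H and 5.26 in 10H, against 133 in 24C and 115 in 10C, and the distal tubule transporter slc12a3 had 1044 in 24H and 0 in 10H, against 390.4 in 24C and 10.5 in 10C. The tubule cadherin cdh17 rose with no called difference (log2 FC 4.89 in the high dose, 4.16 in controls). Under an assumed BCV of 0.4 in edgeR the differences of wt1a and slc12a3 were still called, and those of pax8 and pax2a were not.

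Notochord and floor plate genes rose in 20 of 33 cases (60.6%) in the high dose and in 17 (51.5%) in controls. Of all measured genes, 30.4% and 31.3% rose. The change was more positive under the high dose for 14 (42.4%) and more negative for 2 (6.06%), against 13.6% and 12.6% of all measured genes. The sheath collagen col2a1a had 22865 in 24H and 139.8 in 10H, against 17855 in 24C and 438 in 10C. The lysyl oxidase loxl5b rose in the high dose alone, with 2655 in 24H and 225 in 10H, against 190.4 in 24C and 314 in 10C, and the collagen col8a1a rose further (log2 FC 5.07 and 1.69). The floor plate and notochord signal shha had no called difference (log2 FC 0.94 in the high dose, 0.78 in controls). Of endoderm organ genes, 13 of 29 rose in each pair (44.8%, against 30.4% and 31.3% of all measured genes in high dose and controls). The change was more positive under the high dose for 9 of the 29 and more negative for 3. These were 31.0% and 10.3%, against 13.6% and 12.6% of all measured genes. Among the 3, the somatostatin gene sst1 was a missing rise at low counts, with 1.72 in 24H and 6.31 in 10H, against 55.6 in 24C and 2.098 in 10C. It passed as measured through its 24C reads. Among 41 cilia genes, 18 (43.9%) rose in the high dose and 13 (31.7%) in controls, against 30.4% and 31.3% of all measured genes. The gene cha (current symbol dand5), the Nodal antagonist of the left-right organ, rose in the high dose, with 381 in 24H and 73.6 in 10H, and fell in controls, with 32.1 in 24C and 174 in 10C. Its target, the Nodal ligand spaw, had 92.2 in 24H and 9.46 in 10H, against 21.4 in 24C and 12.6 in 10C. The differences of loxl5b, sst1 and cha remained with an assumed BCV of 0.4, and those of col2a1a, col8a1a and spaw did not.

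The skin list split within itself. Of 46 genes of epidermis, fin fold and ear, 24 (52.2%) rose in the high dose and 23 (50%) in controls. Of all measured genes, 30.4% and 31.3% rose. Of the 23 control rises 15 were kept, 7 were missing and 1 was reversed, while 7 of 11 control falls were missing. The actinodins and1 and and2 encode the fibres that stiffen the fin fold. For and1 there were 72.4 normalized counts in 24H and 69.4 in 10H, against 5590.2 in 24C and 61.9 in 10C. For and2 there were 5.17 in 24H and 8.41 in 10H, against 1855 in 24C and 4.20 in 10C (difference -9.49, interval -11.95 to -7.11). Low dose embryos had 5782 for and1 in 24L and 70.8 in 10L, and for and2 1605 in 24L and 5.31 in 10L, close to the controls. Another actinodin, and3, had log2 FCs of -1.42 and 7.89 in high dose and controls. Of the other skin genes, the basement membrane collagen col7a1l had 9168 in 24H and 35.7 in 10H, against 1468 in 24C and 118 in 10C, and tp63, which maintains basal epidermis, was a missing fall (log2 FC -0.22 and -2.30). The otolith gene oc90 rose in the high dose alone (4.06 and 0.37). Under an assumed BCV of 0.4 in edgeR the differences of the 3 actinodins and col7a1l were still called, and those of tp63 and oc90 were not.

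**Figure D5:**
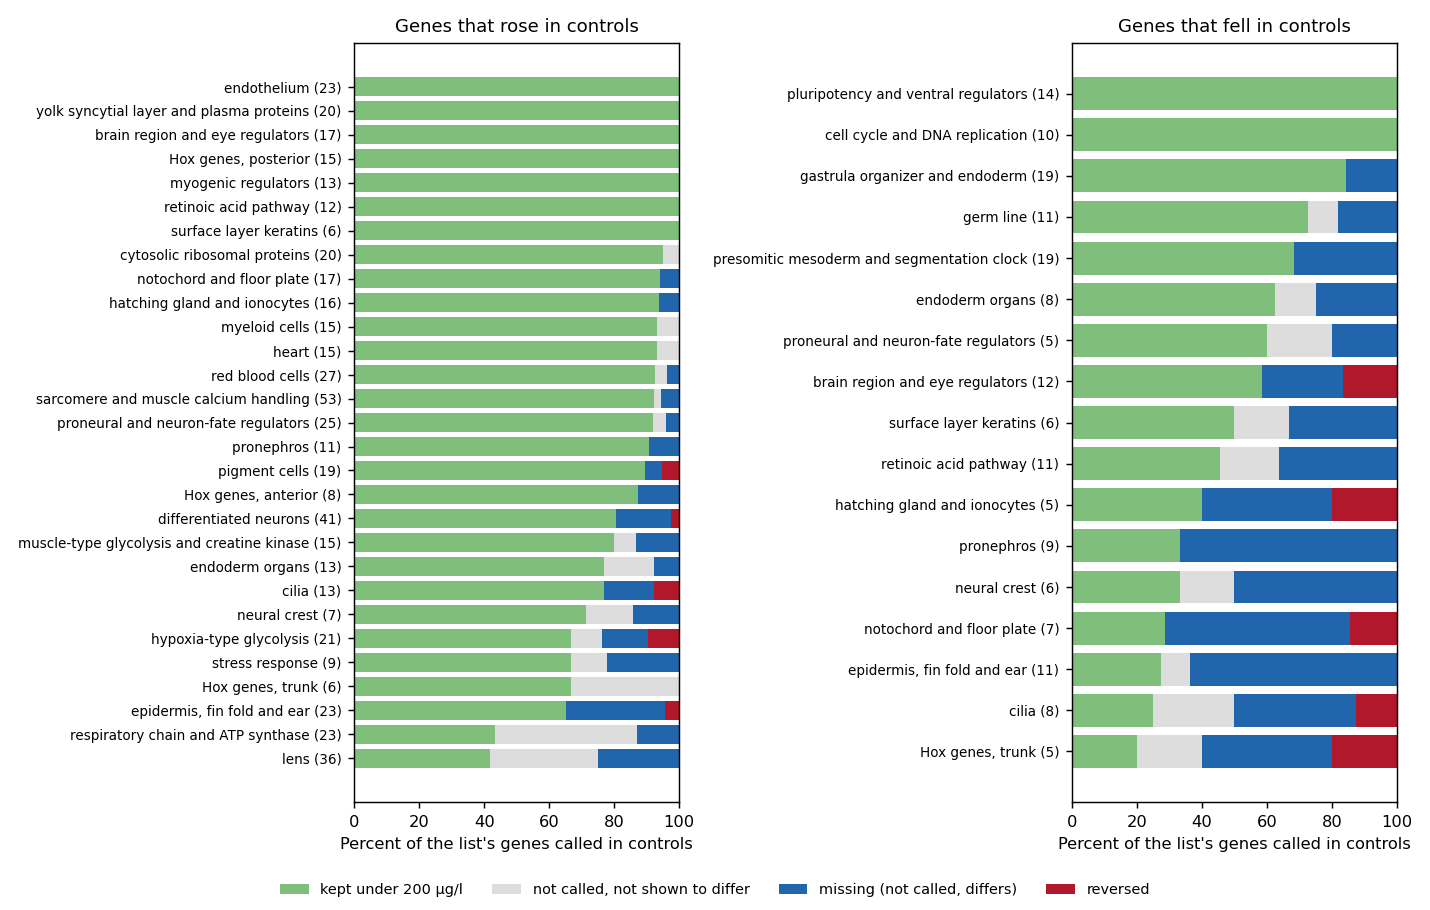
Share of the genes that rose (left) or fell (right) in controls that were kept, not called without being shown to differ, missing or reversed under 200 μg/l PCP, for lists with at least 5 such genes (number in brackets; some genes are in more than 1 list). Endothelial, posterior Hox and brain region genes were among the lists whose rises were all kept. Rises of lens genes were kept least, 15 of 36, with 12 not called without being shown to differ.

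Surface keratins and the hatching gland kept most of their control rises, as did the whole table (68.9%). All 6 control rises of the keratin list were kept, and of its 6 control falls 3 were kept and 2 missing. The change was more positive under the high dose for 3 of its 14 genes and more negative for 2. These were 21.4% and 14.3%, against 13.6% and 12.6% of all measured genes. The keratin krt5, which fell in controls, was a missing fall, with 235207 in 24H and 179848 in 10H, against 44526 in 24C and 198459 in 10C. The hatching enzyme he1a, which will digest the chorion, had 105899 in 24H and 589.7 in 10H, against 153456 in 24C and 3807 in 10C. Its 24 hpf counts were close, and the larger rise in the high dose (difference 2.16) lay in the 10 hpf counts. In the list of hatching gland and ionocyte genes 15 of 16 control rises were kept. Its change was more positive under the high dose for 11 of 24 genes (45.8%) and more negative for 4 (16.7%). The gene gcm2, which commits proton-secreting ionocytes, had 528 in 24H and 2.102 in 10H, against 304 in 24C and 121 in 10C. The forkhead gene foxi3a, which specifies ionocytes, rose in the high dose and fell in controls (log2 FC 1.47 and -1.02). The yolk syncytial layer and plasma protein genes rose in 24 of 28 cases (85.7%) in the high dose and in 20 (71.4%) in controls, with all 20 kept. Of all measured genes, 30.4% and 31.3% rose. Fibrinogen alpha (fga) had 5832 in 24H and no reads in 10H, a rise of at least 1849.5-fold against 3 reads, where controls had 5821 in 24C and 43.0 in 10C. Under an assumed BCV of 0.4 in edgeR the differences of gcm2 and fga were still called, and those of krt5, he1a and foxi3a were not.

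Several genes of the hypoxia-type glycolysis list were far higher in 10H than in 10C. The list also holds genes that are not glycolytic enzymes, such as vegfaa and prolyl hydroxylases. Of 37 measured, 16 rose and 6 fell in the high dose (43.2% and 16.2%, against 30.4% and 21.7% of all measured genes). In controls 21 rose and 4 fell, and 14 of the 21 control rises were kept, 3 were missing and 2 were reversed. The change was more negative in the high dose for 16 (43.2%) and more positive for 6 (16.2%), against 12.6% and 13.6% of all measured genes. The glyceraldehyde phosphate dehydrogenase gapdhs had 16941 normalized counts in 24H and 6879 in 10H, against 5064 in 24C and 90.2 in 10C. The 10H count was thus above that of 24C. For the enolase eno1 the 10H count was close to that of 24C, with 6581 in 24H and 2694 in 10H, against 2644 in 24C and 42.0 in 10C. Lactate dehydrogenase ldha did not pass as a rise in the high dose, with 5864 in 24H and 4207 in 10H, against 5870.5 in 24C and 441 in 10C. The reversed genes were prolyl hydroxylases, which mark the hypoxia-inducible factor for breakdown. For egln3 the counts were 3662 in 24H and 8152 in 10H, against 381 in 24C and 83.9 in 10C, and for egln2, listed as LOC559569, 542 in 24H and 1749 in 10H, against 342 in 24C and 40.9 in 10C. Low dose counts of gapdhs were 7209 in 24L and 116 in 10L, near the controls at 10 hpf. The 2 hydroxylases stood above the controls there. In reads, egln3 had 2412 in 24L and 367 in 10L, against 356 in 24C and 80 in 10C. For egln2 the reads were 671 in 24L and 230 in 10L, against 320 in 24C and 39 in 10C. The glucose transporter slc2a3b, listed as LOC100330897, was a missing rise on few reads (53.4 in 24H and 44.1 in 10H, against 49.2 in 24C and 1.05 in 10C). Not every member behaved so, as vegfaa rose further in the high dose (log2 FC 3.90) than in controls (2.01). Under an assumed BCV of 0.4 in edgeR the differences of gapdhs, eno1 and egln2 were still called and those of ldha, egln3 and vegfaa were not.

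Ribosomal protein genes rose together in the high dose and in the low dose. Of 70 cytosolic ribosomal protein genes, 57 (81.4%, against 30.4% of all measured genes) rose in the high dose (median 1.16) and 20 in controls (median 0.82), but no gene had a called difference, and 55 rose in the low dose (median 1.25). These values lie near the 2-fold threshold, and edgeR called 57 of the 57 rises with an assumed BCV of 0.2 and 0 with one of 0.4. Proteasome subunits fell in 12 of 35 cases in the high dose and in 1 in controls, with medians of -0.86 and -0.20. These were 34.3% and 2.86%, against 21.7% and 21.2% of all measured genes. The change was more negative in the high dose for 5 (14.3%), near the 12.6% of all measured genes. The subunit gene psmb3 had 3283 in 24H and 9330.0 in 10H, against 11923 in 24C and 13661 in 10C. Respiratory chain genes rose in 10 of 60 cases in the high dose and in 23 in controls (16.7% and 38.3%). Of all measured genes, 30.4% and 31.3% rose. The change was more negative in the high dose for 6 (10%), below the 12.6% of all measured genes. The ATP synthase gene atp5ia had log2 FCs of 1.09 and 2.67 in high dose and controls. Of these 3 lists no difference remained with an assumed BCV of 0.4.

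Among 27 stress response genes, 11 (40.7%) rose in the high dose and 9 (33.3%) in controls, near the 30.4% and 31.3% of all measured genes. For 7 the change was more positive under the high dose and for 7 more negative (25.9% each, against 13.6% and 12.6% of all measured genes). The heat shock gene hsp70l, strongly induced by stress, had 3820.2 in 24H and 21.0 in 10H, against 203 in 24C and 82.9 in 10C (difference 6.21, interval 5.45 to 7.02), and 173 in 24L and 51.3 in 10L. The stress factor atf3 rose in the high dose alone (log2 FC 3.73, and 0.19 in controls), as did the ubiquitin ligase gene mdm2 (1.19 and -0.01). The detoxifying enzyme cyp1a rose in both, less far in the high dose (2.93 and 4.04). In the retinoic acid pathway all 12 control rises were kept and 4 of 11 control falls were missing. Over all genes, 68.9% of control rises were kept and 14.5% of control falls were missing. The change was more positive under the high dose for 9 of the 27 pathway genes and more negative for 0. These were 33.3% and 0%, against 13.6% and 12.6% of all measured genes. The synthesizing enzyme aldh1a2 fell in both with no called difference (-1.49 and -1.34). The degrading enzyme cyp26c1 rose in the high dose alone (1.62 and -0.64). Of the differences named in these lists, that of hsp70l was still called with an assumed BCV of 0.4.

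Over the whole table, among genes with a symbol and at least 50 reads in a library, the highest differences included those of anpep and irf3. The aminopeptidase anpep rose in the high dose, with 549 in 24H and 176 in 10H, and fell in controls, with 4.28 in 24C and 774 in 10C (difference 9.14). The interferon factor irf3 had 280.1 in 24H and 7.36 in 10H, against 6.42 in 24C and 24.1 in 10C. The most negative differences were those of the gamma M crystallins, pvalb1 and and2 given above. All of these were still called with an assumed BCV of 0.4. They were picked as the most extreme differences in these same reads, so these calls are no separate support. The gamma M crystallins and and2 also reached 50 reads in 24C alone, the library where they were high. The largest rises within the high dose included that of myog, and of igfbp2a, a binding protein of insulin-like growth factors, with 1353 in 24H and 0 in 10H (at least 429-fold against 3 reads), where controls had 1993 in 24C and 74.5 in 10C. The largest falls within the high dose were shared with the controls, as for k23 (log2 FC -7.33 and -7.34), the organizer BMP ligand admp (-5.63 and -8.14) and the carbonic anhydrase ca9 (-6.08 and -4.92).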

How the data were processed

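Per the labels, RNA of whole embryos was sequenced as 1 library for each of 6 groups, with the embryos of a group combined. The authors mapped reads with Tophat and scaled the counts of genes by TMM, and the labels name another zebrafish assembly than the methods do. The sources used here do not give the read counter. The deposited signal is a normalized count. All values (100%) were whole multiples of 1 step for each library (tolerance 0.001 reads), 0.862 in 24H to 1.07 in 24C, so reads were recovered by division. No value columns were left unmapped.

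Groups were taken from the labels. The design is 1 library a group, and p-values measure counting error between these libraries only. Each pair was tested by a two-sided exact binomial test given the scaling, and the difference between pairs by an exact conditional test of the 4 read counts. Genes were called at more than 2-fold with an adjusted p under 0.05 (Benjamini-Hochberg over all genes). Clopper-Pearson intervals (95%) are given for FCs. Against a library with 0 reads, FC is a bound from a floor of 3 counts in that library. A kept, missing, reversed or gained change is one called in both pairs alike, in controls alone with a called difference, in both pairs oppositely, or in the high dose alone with a called difference.

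The 35 lists hold 1231 symbols, of which 978 were matched by gene ID, 79 by name and 15 by synonym, while 159 found no match in the RefSeq names. Members and lists were chosen with earlier results of these data known. Named genes were those marked in the lists, the 8 highest and 8 lowest FCs of 24H over 10H and the 8 highest and 8 lowest differences with at least 50 reads, and in each list the 2 highest and 2 lowest called differences, 224 in all (merged and LOC entries outside the lists excepted), of which the text gives a part. A gene named outside this rule was chosen after its values were seen and is said to be so, or is listed because its call held at a BCV of 0.4. The tests were tried on simulated libraries with 200 changed genes. The alternatives tried were library totals or the median of ratios as scaling, at least 10 reads on average, a 4-fold threshold, 2-fold with no test, an unadjusted p, edgeR 4.0.16 with an assumed BCV of 0.2 or 0.4, the low dose in place of the controls, and an added constant of 0.1 or 10 in place of 1 for medians. R was 4.3.3, and the rest ran in Python 3.11.15 with scipy 1.17.1, numpy 2.4.6 and pandas 2.3.3.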

Additional observations from a re-analysis of the deposited data

Results flagged for a closer look

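A closer look is due to 11 named genes that were called in opposite directions between 10 and 24 hpf under the high dose and in controls. The differences of log2 FC were 9.14 for anpep, 7.47 for egr2b, 7.16 for irf3, 4.81 for cha, 3.76 for inaa, 3.08 for hoxa9b, 2.54 for kdr and 2.496 for foxi3a, which rose in the high dose and fell in controls. They were -4.97 for th, -4.75 for egln2 (listed as LOC559569) and -3.34 for egln3, which fell in the high dose and rose in controls. With an assumed BCV of 0.4 in edgeR, the high dose call was lost for 7 of the 11, anpep, egln3, egln2, foxi3a, hoxa9b, kdr and th, and the difference for 5, egln3, foxi3a, hoxa9b, inaa and kdr. A 4-fold threshold lost the same 7 high dose calls, and that of th was also lost with library totals and with a BCV of 0.2. The neuronal filament gene inaa had 847 normalized counts in 24H and 171 in 10H, against 89.9 in 24C and 247 in 10C. With 1 library a group, the difference between conditions was not tested beyond the reads of these 4 libraries, and what lies behind it was not tested.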

How the results depend on the processing

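The spread between batches of embryos is unknown, and the counts moved more with an assumed spread than with another scaling. Scaling by library totals or median-of-ratios, a minimum of 10 reads and an unadjusted p kept every count within 1.5 times. Both scalings and the minimum of 10 reads kept 174 of 174 named differences. An unadjusted p did so too, but it cannot lose a call made with an adjusted p. The named differences also include the largest called ones, which had at least 50 reads in a library. Of 160 named changes of 24H over 10H, that of th lost its call with library totals, 42 at 4-fold, 3 with a BCV of 0.2 (crygm2d10, mipa and th) and 44 with a BCV of 0.4. No paired analysis was possible because each group was 1 library.

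With a BCV of 0.4 in edgeR, 3071 genes rose and 914 fell in the high dose and 3622 and 948 in controls, with 93 changes more positive and 137 more negative. Rises were then kept for 2223 genes, missing for 81, reversed for 7 and gained for 33, and falls for 452, 28, 8 and 23. Of the 174 named differences 55 were still called, or 137 with a BCV of 0.2. A BCV of 0.2 gave 972 changes more positive and 1035 more negative, 459 missing and 327 gained rises, and 216 missing and 197 gained falls. At 4-fold, 1327 genes fell in the high dose and 1308 in controls, with 898 changes more positive and 1111 more negative. There were 2755 kept, 26 reversed and 316 gained rises, and 645 kept, 191 missing, 15 reversed and 161 gained falls. At 2-fold with no test, 3731 changes were more positive and 4364 more negative, 446 rises and 253 falls reversed, and 801 falls gained. Against the low dose in place of the controls there were 311 missing falls, and the difference of sox32 turned to -2.05. Library totals shifted the median log2 FC of all genes to 0.10 in the high dose and 0.10 in controls. An added constant of 10 moved the high dose medians of 12 of 35 lists and the median differences of 5, and 0.1 moved the median differences of 7, with lens moved by both constants.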

Other observations

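A few genes outside the lists, chosen after their values were seen, also changed in controls and not, or oppositely, under the high dose. The mitochondrial ADP/ATP carrier slc25a4 had 19.8 normalized counts in 24H and 22.1 in 10H, against 5045 in 24C and 12.6 in 10C, and 1334 in 24L and 9.73 in 10L. The mitochondrial superoxide dismutase sod2 fell in the high dose, with 56.9 in 24H and 444 in 10H, and rose in controls, with 1177 in 24C and 317 in 10C. The cartilage proteoglycan epyc had 22.4 in 24H and 119 in 10H, against 1772 in 24C and 43.0 in 10C. The control rise was thus missing for slc25a4 and reversed for sod2 and epyc.

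Among control falls, some were missing or reversed. The steroid-synthesizing enzyme cyp11a1 had 4542 in 24H and 5995 in 10H, against 86.6 in 24C and 6172 in 10C. The bile salt transporter abcb11a rose in the high dose, with 10334 in 24H and 1389.6 in 10H, and fell in controls, with 379.7 in 24C and 3298 in 10C. The matrix gene emilin3a did the same (log2 FC 2.53 in the high dose, -3.92 in controls), as did the somite gene meox1 (1.95 and -2.21) and fibronectin fn1b (1.46 and -2.26). The filamin gene flncb, which links actin at muscle ends, rose in the high dose alone (4.02 and -0.30). Except for fn1b, the differences of the genes in these paragraphs were still called with an assumed BCV of 0.4.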
